A study of Mus musculus with 18 samples.

Results

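Prm1, Prm2, Tnp1, Tnp2, Smcp and Odf1 are 6 mouse genes whose products package the DNA of sperm or build the sperm midpiece and tail. They were followed by name, through every probe assigned to them, and are 6 of the 18903 named genes on the arrays. Total RNA came from 10 samples on 18 single-colour oligonucleotide arrays of 2 platforms, UniSet Mouse 20K and Mouse Whole Genome. Adult tissue RNA (2 samples, 1 array each) was measured on UniSet 20K only, and the labels do not name the tissue or tissues. The undifferentiated embryonic stem cells (ESC) were the MES3 line, a single line made from a C57BLxCBA blastocyst and grown on mitomycin-inactivated embryonic fibroblast feeders in serum medium with LIF and beta-mercaptoethanol. Embryoid bodies (EB), the aggregates in which ESC differentiate spontaneously, were grown from the same line on low-adhesion plates without LIF and beta-mercaptoethanol for 3 or 7 days. UniSet 20K carried 1 ESC sample, 2 samples of 3-day EB and 2 of 7-day EB, and Whole Genome carried 1 sample of each, always on 2 arrays per sample. Probes for Prm2, Tnp1, Smcp and Odf1 were present on both platforms, 1 probe per gene, whereas Prm1 and Tnp2 had a probe on Whole Genome only and so no adult value.

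In the haploid spermatid most histones leave the DNA. Transition proteins, encoded by Tnp1 and Tnp2, take their place for a while and are then replaced by the arginine-rich protamines, encoded by Prm1 and Prm2, which hold sperm chromatin in its condensed, silent form. Smcp encodes a cysteine-rich protein of the capsule of the mitochondria wrapped around the sperm midpiece, and Odf1 encodes a main protein of the outer dense fibres that stiffen the tail. Their transcripts are made late in male germ cell development, and many are stored before translation.

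Prm1 (chr16:10796332-10796823), Prm2 (chr16:10791377-10792105) and Tnp2 (chr16:10787935-10788655) lie in 1 cluster with Prm3 (chr16:10790508-10790914), which spans 8889 bases in GRCm38.p6 (RefSeq annotation). Tnp1 (chr1:73015074-73015899), Smcp (chr3:92583866-92589073) and Odf1 (chr15:38219203-38226735) lie on other chromosomes. The Smcp gene lies within the span of the long noncoding RNA gene Gm35639, which had no probe of its own, and which of the 2 transcripts the Smcp probe reads was not tested. The 150 bases before each annotated start are printed because the cluster genes and Tnp1 belong to one programme of spermatid transcription, and they show which short motifs these starts share. All are on the minus strand and run 5′ to 3′, from RefSeq (GRCm38.p6), with matches to the searched motifs in capitals. No entry was held for Odf1.
Prm1 (chr16:10796824-10796973): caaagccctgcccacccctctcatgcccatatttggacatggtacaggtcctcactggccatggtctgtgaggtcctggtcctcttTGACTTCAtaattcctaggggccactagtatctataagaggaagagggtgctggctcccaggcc
Prm2 (chr16:10792106-10792255): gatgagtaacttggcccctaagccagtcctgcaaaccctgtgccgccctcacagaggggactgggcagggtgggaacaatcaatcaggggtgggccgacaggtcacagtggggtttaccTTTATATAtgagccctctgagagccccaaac
Tnp1 (chr1:73015900-73016049): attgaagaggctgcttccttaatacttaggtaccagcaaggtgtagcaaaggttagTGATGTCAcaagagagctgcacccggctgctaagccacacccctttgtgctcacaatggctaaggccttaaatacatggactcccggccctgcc
Tnp2 (chr16:10788656-10788805): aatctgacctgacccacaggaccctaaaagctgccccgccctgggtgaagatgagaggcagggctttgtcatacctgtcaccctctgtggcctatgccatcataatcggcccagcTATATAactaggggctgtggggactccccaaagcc
Smcp (chr3:92589074-92589223): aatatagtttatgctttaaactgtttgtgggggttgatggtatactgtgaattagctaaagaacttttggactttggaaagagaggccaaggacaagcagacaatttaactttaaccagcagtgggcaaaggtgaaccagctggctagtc
Prm3 (chr16:10790915-10791064): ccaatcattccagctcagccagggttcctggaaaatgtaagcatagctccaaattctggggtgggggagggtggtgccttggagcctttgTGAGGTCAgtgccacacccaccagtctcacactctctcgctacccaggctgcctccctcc
The letters searched were TGANNTCA, which is the outline of a cyclic AMP response element with free middle bases, the full TGACGTCA, and the TATA-type words TATAAA and TATATA. Both strands of the 300-base window from 250 bases before to 50 after the start were read, and the words were chosen after the sequences had been seen. TGANNTCA was found at Prm1 (bases -64 to -57), Tnp1 (-94 to -87), Prm3 (-60 to -53) and Smcp (25 to 32 after the start, outside the printed stretch), that is in 4 of 6 windows, and in 14.1% of 32851 RefSeq promoter windows. TGACGTCA was in 0 of the 6 and in 1.79% of all windows. Prm2 held TATATA (-29 to -24) overlapping TATAAA on the opposite strand (-31 to -26), and Tnp2 held TATATA (-35 to -30). TATATA was in 5.67% and TATAAA in 13.6% of all windows. These are letter matches, and binding was not measured.

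The adult arrays were brighter than the other UniSet 20K arrays. Their median raw intensity was 30.1 and 22.2, against 7.00 to 10.9 for ESC and EB. They had 52.8% to 57.9% of gene probes above background, against 27.8% to 36.4% for ESC and EB. Pluripotent cell markers were above background for 2 of 8 genes with a probe in adult tissue and for 6 of 8 in ESC. Feeder fibroblast markers were above background for 1 of 10 genes in each EB group and for 9 of 10 in ESC. In adult tissue, liver markers were above background for 8 of 9 genes, lung for 4 of 5 and skeletal muscle for 6 of 8. Kidney stood at 4 of 6, brain at 5 of 8 and lymphoid at 4 of 7, closer to the share of all gene probes on these arrays. In the fit described below, 4 of 4 kidney genes and 2 of 5 brain genes rose against ESC. Of 4 lymphoid genes, 3 rose and 1 fell. The RNA thus held markers of several organs, least clearly of brain and lymphoid tissue. The scanner reports of the adult arrays carry a date of their own, so date and group cannot be told apart.

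All 4 sperm genes with a UniSet 20K probe were bright in both adult samples and below background in ESC and in both EB groups. Prm2 had a raw intensity of 8962 and 13286 in adult tissue, which is 298 and 598 times the median of its array. On the ESC arrays the Prm2 probe read 2.32 and 5.29, on the 3-day EB arrays 2.56 to 9.19 and on the 7-day EB arrays 2.82 to 10.2, all below background. On raw intensity, which is not adjusted for the brighter adult arrays, no ESC or EB value overlapped the adult values of Prm2. How many other probes lacked such an overlap was not counted. Of all 19758 gene probes, 14.2% were above background on both adult arrays and on no ESC or EB array of UniSet 20K.

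Tnp1, the transition protein gene, read 6714 and 9715 in adult tissue (223 and 437 times the array median). Its probe read 1.84 and 1.49 in ESC, -0.441 to 7.86 in 3-day EB and 1.32 to 9.02 in 7-day EB. Negative values arose because background had been subtracted before deposition. Smcp, the mitochondrial capsule gene, read 8279 and 10111 in adult tissue (275 and 455 times the array median). Its probe read 5.00 and 12.3 in ESC, 6.08 to 14.0 in 3-day EB and 8.78 to 12.5 in 7-day EB, so that ESC and EB overlapped each other. Odf1, the dense fibre gene, read 1640 and 1104 in adult tissue (54.5 and 49.7 times the array median), and 6.33 and 8.66 in ESC, 2.18 to 10.2 in 3-day EB and 6.98 to 10.0 in 7-day EB. All 40 member spots on the 10 ESC and EB arrays were below background, and the highest stood at 1.62 times its array median. Of the 19758 gene probes, 11302 were below background on all 10 of these arrays.

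**Figure D1:**
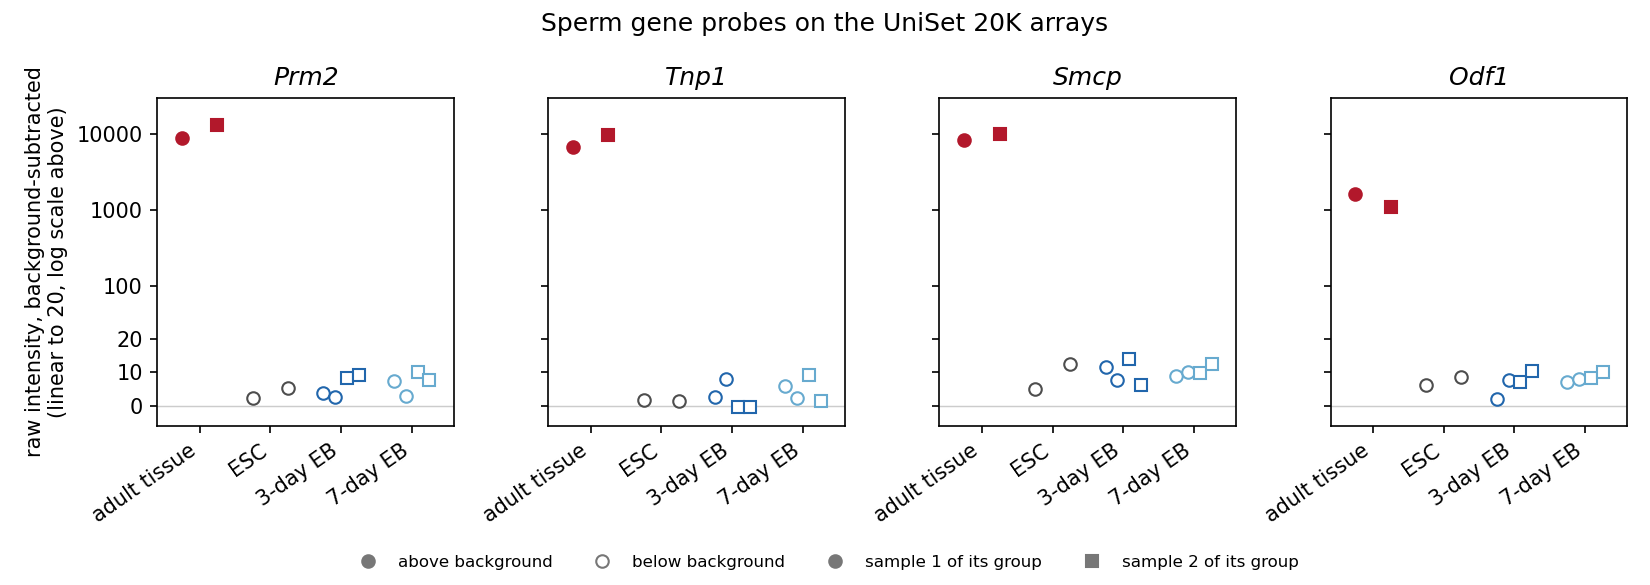
Raw background-subtracted intensity (linear up to 20, log scale above) of the Prm2, Tnp1, Smcp and Odf1 probes on each UniSet 20K array, by group, with filled points above and open points below background and circles and squares for the first and second sample of a group. The adult points lie between 1104 and 13286, and every ESC and EB point is open and at or under 14.0.

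The 2 adult samples differed among themselves by gene. On the normalized log2 scale the second adult sample was higher than the first by 0.79 for Prm2, 0.77 for Tnp1 and 0.40 for Smcp, while Odf1 was lower by a difference of -0.37. Gaps as wide as those of Prm2 and Tnp1 stood at percentiles 91.0 and 90.2 of all probes above background in adult tissue, and those of Smcp and Odf1 at 62.6 and 59.4. Each adult sample was 1 array, so this has no test, and it depends on the scaling, since Odf1 was further apart on raw intensity (1640 and 1104) than on the normalized scale.

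Adult tissue was set against each culture group in 1 limma fit over the 10092 genes tested on UniSet 20K, on quantile-normalized log2 intensity averaged per sample, with Benjamini-Hochberg adjustment and a threshold of 0.05. Where a group was below background on all its arrays, the fold is given as a bound: the adult mean over the mean, over the arrays of the other group, of the lowest signal marked above background there (or the probe's own, where higher). A spot could be marked below background while brighter than another marked above it. On a Whole Genome 7-day EB array, Prm1 at 21.4 was marked below, and the dimmest signal marked above was 18.3. The words "at least" therefore refer to this definition and this normalization, and are no strict limit. Only 1 ESC sample was on UniSet 20K, and it is assumed to vary like the others. The labels do not say that replicates were separate cultures or animals, so p-values reflect only how far these samples spread, which may be technical. In bulk RNA, fewer cells of a type and less RNA per cell cannot be told apart. The 3 comparisons share the adult samples.

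Prm2 averaged 12.52 in adult tissue and 2.16 in ESC on the normalized log2 scale, a difference of 10.35 (SE 0.73, adjusted p = 6.78e-05, limma), so it was at least 249-fold higher in adult tissue. Tnp1 averaged 11.92 in adult tissue and 1.77 in ESC (the floor set by the negative controls), and was at least 164-fold higher (log2 difference 10.14, SE 0.52, adjusted p = 2.58e-05, limma). Smcp was at least 197-fold higher in adult tissue (8.71, SE 0.37, adjusted p = 1.93e-05, limma) and Odf1 at least 19.4-fold higher (5.41, SE 0.42, adjusted p = 9.82e-05, limma). Of all genes tested, 51.8% were called, 26.7% as higher and 25.1% as lower in adult tissue than in ESC. With arrays centred on their median instead, the calls split into 3236 higher and 1780 lower, against 2693 and 2535. These 4 probes passed the filter on dim probes through the adult arrays alone, which favours a call as higher in adult tissue. Their number is therefore no support by itself.

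Against the embryoid bodies the bounds were of the same order. Prm2 was at least 222-fold higher in adult tissue than in 3-day EB (log2 difference 9.77) and at least 299.9-fold higher than in 7-day EB (9.65). Tnp1 was at least 146-fold higher than in 3-day EB (9.65) and at least 198-fold higher than in 7-day EB (9.56). For Smcp these bounds were 176-fold (8.38) and 238-fold (8.59), and for Odf1 17.3-fold (5.73) and 23.4-fold (5.62). The adjusted p in limma lay between 5.27e-06 and 2.03e-05 against 3-day EB, and between 4.27e-06 and 1.92e-05 against 7-day EB. Against 3-day EB 62.0% of all genes tested were called (31.5% higher and 30.4% lower in adult tissue), and against 7-day EB 61.6% (32.2% higher and 29.4% lower). The bounds differ among the culture groups with the dimmest signal each array could mark as present, and the 4 probes were below background in all of them.

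Whole Genome gave the sperm genes another reading in ESC and EB. These arrays were brighter, with a median raw intensity of 33.1 to 69.2, and 68.2% to 78.6% of the 19758 probes shared by both platforms were above background. With 1 sample per group there is no test, and the values below come in pairs of arrays of 1 sample. Tnp1 read 51.1 and 38.6 in ESC, 102 and 110 in 3-day EB and 71.4 and 65.4 in 7-day EB, all above background. Smcp read 75.6 and 59.7 in ESC, 79.3 and 78.5 in 3-day EB and 57.9 and 47.5 in 7-day EB, all above background. These are levels near the middle of the array, from 0.687 to 2.10 times its median for these 2 genes.

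Odf1 read 42.9 and 38.8 in ESC, 50.3 and 57.9 in 3-day EB and 57.6 and 65.0 in 7-day EB. Prm2 read 24.0 and 6.81 in ESC, where the second array marked it below background, 37.1 and 30.1 in 3-day EB and 34.7 on both arrays in 7-day EB. Prm1, the other protamine gene, was below background on all 6 arrays, at 5.81 and 2.64 in ESC, -4.14 and 8.50 in 3-day EB and 21.4 and 12.4 in 7-day EB. Tnp2, the other transition protein gene, was also below background throughout, at 13.7 and 5.77 in ESC, 6.19 and 0.733 in 3-day EB and 4.15 and 5.06 in 7-day EB. Prm3, the fourth gene of the cluster and no protamine in function, was below background on all 6 arrays as well (4.59 to 6.93). In the cluster on Whole Genome, Prm2 was the 1 gene with a probe above background in the cultures.

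**Figure D2:**
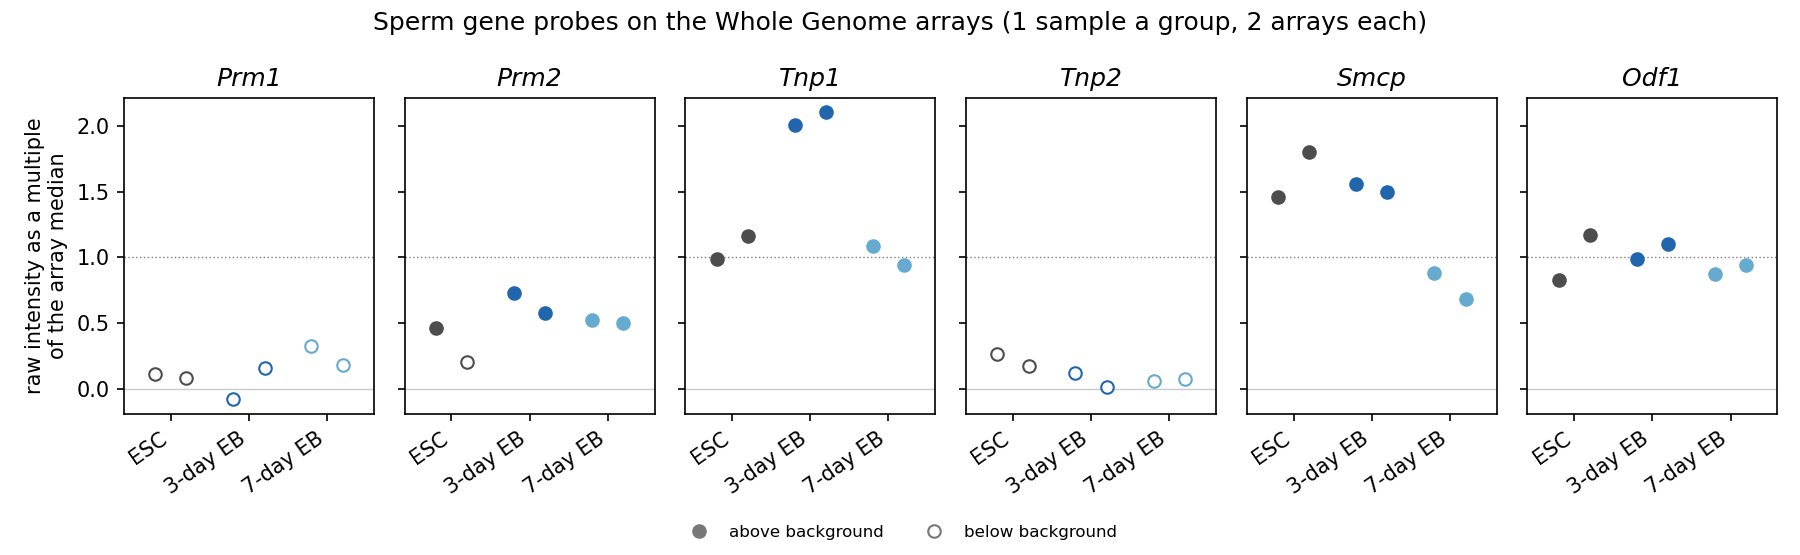
Raw intensity of the 6 sperm genes on each Whole Genome array as a multiple of that array's median (dotted line at 1), for ESC, 3-day EB and 7-day EB, 2 arrays of 1 sample each, with filled points above and open points below background. Tnp1 in 3-day EB stands at 2.00 and 2.10, Smcp in 7-day EB at 0.879 and 0.687, and all Prm1 and Tnp2 points are open.

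On the normalized log2 scale, which evens out array brightness, Tnp1 was 0.94 higher in 3-day EB than in ESC (1.92-fold), against a gap of 0.00 between the arrays of the 3-day sample and 0.26 between those of the ESC sample. In 7-day EB it differed from ESC by -0.10. Smcp differed by -1.09 in 7-day EB against ESC, beyond the array gaps of 0.37 and 0.35, and by -0.09 in 3-day EB. Among all probes above background on the 4 arrays, 9.00% were at least 2-fold lower and 8.01% at least 2-fold higher in 7-day EB than in ESC. For 3-day EB against ESC these shares were 7.05% and 7.19%. Odf1 differed from ESC by 0.10 in 3-day EB and -0.14 in 7-day EB, within the 0.51 gap between the ESC arrays. Prm2 differed by 1.05 and 0.68, each less than the 1.27 gap between its ESC arrays. Gaps between arrays of 1 sample hold no variation between cultures. The 7-day EB arrays of Whole Genome carry another report date than its ESC and 3-day EB arrays, so date and group cannot be told apart in the 7-day values.

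The same probes being dark on UniSet 20K and above background on Whole Genome was common. Of 11302 shared gene probes below background on all 10 ESC and EB arrays of UniSet 20K, 43.0% were above background on both Whole Genome arrays of ESC, 48.5% on those of 3-day EB and 57.4% on those of 7-day EB. Of the 4 sperm gene probes this held for 3 in ESC (all but Prm2) and for 4 in each EB group. Among those 11302 probes the median signal on Whole Genome was 0.462, 0.504 and 0.514 times the array median in ESC, 3-day EB and 7-day EB, with a 90th percentile of 3.03, 2.72 and 2.68. All 4 sperm gene probes lay under that percentile in each group. Whether the samples or the platforms differed was not tested, since no sample was measured on both.

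Between EB and ESC, no sperm gene passed the filter on dim probes in the fit over both platforms, so none was tested there. In that fit 5.11% of genes changed in 7-day EB against ESC (1.78% higher, 3.33% lower) and 2.81% in 3-day EB (0.650% higher, 2.16% lower). With the filter lifted, 0 of 8 tests of the 4 genes in limma had an adjusted p under 0.05 and 0 an unadjusted p under 0.05. Of all genes, 0.754% were called in 7-day EB and 0.407% in 3-day EB. Every UniSet spot of the 4 genes in ESC and EB was below background. The fit therefore rests largely on values below background and cannot decide whether these genes changed in EB. The largest log2 differences were those of Prm2, 0.76 in 3-day EB (SE 0.50, adjusted p = 0.568, limma) and 0.72 in 7-day EB (SE 0.50, adjusted p = 0.556, limma). Tnp1 gave 0.63 in 3-day EB (SE 0.40, adjusted p = 0.556, limma) and 0.34 in 7-day EB (SE 0.40, adjusted p = 0.744, limma). Smcp gave 0.09 in 3-day EB (SE 0.34, adjusted p = 0.938, limma) and -0.38 in 7-day EB (SE 0.34, adjusted p = 0.674, limma).

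Other genes of spermatids, taken from lists for the neighbouring steps of the same programme, were also high in adult tissue. Of the 14 other genes of sperm chromatin and nuclear shaping, 9 had a UniSet 20K probe and 6 were above background in adult tissue, against 1 in each EB group and 0 in ESC. Whole Genome had a probe for 13 of them and marked 4 above background in 7-day EB, 3 in 3-day EB and 3 in ESC. Of all gene probes on those arrays, 60.9% to 72.2% were above background. Of the 6 tested, 5 rose in adult tissue against ESC, 0 fell, and 1, the actin-like gene Actl7a, did not pass the test (log2 difference 0.42, SE 0.34). H1f7, a linker histone of spermatids, was at least 112-fold higher in adult tissue (log2 difference 9.45, SE 0.30, adjusted p = 1.86e-05, limma). Hils1, a spermatid linker histone-like gene now also called H1f9, was at least 53.6-fold higher (8.26, SE 0.29, adjusted p = 1.86e-05, limma). Camk4, a kinase known to phosphorylate protamine 2, was at least 4.52-fold higher (4.58). Prm3 was at least 12.5-fold higher (5.56, SE 0.75, adjusted p = 0.000975, limma), with raw values of 719 and 1074 in adult tissue and below background on every ESC and EB array.

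Of 36 other sperm tail genes, 28 had a UniSet 20K probe and 24 were above background in adult tissue, against 5 in each EB group and 7 in ESC. Whole Genome had a probe for 34 and marked 14 above background in 7-day EB, 14 in 3-day EB and 15 in ESC. Of 23 tested, 21 rose in adult tissue against ESC, 0 fell and 2, Catsper1 and Akap3, did not pass. Akap3 was lower than in 3-day EB (-0.79, adjusted p = 0.0353, limma). Oaz3, the antizyme of haploid germ cells, was at least 141-fold higher (log2 difference 8.46, SE 0.30). Spata19, a mitochondrial protein of the sperm midpiece, was at least 113-fold higher (9.23, SE 0.33). Odf3, a further outer dense fibre gene, was at least 15.6-fold higher (5.85, SE 0.28). Ropn1l, a protein of the fibrous sheath, was not below background on every ESC array, and its level was 12.88 in adult tissue and 5.18 in ESC, a difference of 7.70 (SE 0.30).

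Of 20 acrosome and egg-binding genes, 16 had a probe, and 15 were above background in adult tissue and 0 in ESC or EB on UniSet 20K. All 15 were tested through the adult arrays and passed the test as higher against ESC, but for Crisp2 and Zp3r the adult level lay under the dimmest signal the ESC arrays could mark as present, so no fold is given for them, and Zp3r did not pass against 3-day EB (adjusted p = 0.109, limma). On Whole Genome, which had a probe for 19 genes of this list, 9 were above background in 7-day EB, 9 in 3-day EB and 5 in ESC. The list includes Zpbp, which binds the zona pellucida (at least 10.7-fold), and Acrv1, an acrosomal vesicle protein (at least 8.16-fold). The acrosin-binding gene Acrbp was at least 15.04-fold higher (log2 difference 4.72, SE 0.40), and the testis protease gene Prss21 was at least 4.23-fold higher in adult tissue than in ESC. Among 10 tested regulators of haploid genes, 7 rose against ESC, 0 fell and 3, Boll, Sox30 and Piwil1, did not pass. Of all genes tested, 26.7% were called higher. Whole Genome had a probe for 14 regulators and marked 12 above background in 7-day EB, 12 in 3-day EB and 12 in ESC. Crem, the cyclic AMP responsive activator of spermatid genes, was at least 12.9-fold higher in adult tissue (log2 difference 4.11, SE 0.34), and its partner Fhl5 at least 11.7-fold higher (6.32, SE 0.31). Gtf2a1l, a TFIIA subunit of germ cells, was at least 1.72-fold higher, and the TBP-like factor gene Tbpl1 differed by 3.00 (SE 0.34), with probe signal in adult tissue and in ESC.

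Earlier germ cell genes were mixed. Of 13 meiosis genes tested, 5 rose in adult tissue against ESC, 2 fell and 6 did not pass. The cyclin gene Ccna1 was at least 7.76-fold higher, the spermatocyte chaperone gene Hspa2 at least 6.46-fold higher, the synaptonemal complex gene Syce1 3.13 higher on the log2 scale and the recombination gene Tex15 2.15 higher. The 2 that fell were Hormad1 (log2 difference -1.97) and Sycp3 (-1.56). Of 8 early germ cell genes tested, 2 rose, 5 fell and 1 did not pass. The 2 that rose were Ddx4 (log2 difference 2.45) and Dazl (1.95). Those that fell included Dppa3, active in primordial germ cells and in ESC (at least 13.5-fold lower in adult tissue), Prdm1, a transcriptional repressor of primordial germ cells (at least 5.34-fold lower, log2 difference -2.50), and Tex19.1 and Kit, with log2 differences of -4.00 and -1.82.

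The median log2 difference between adult tissue and ESC was 9.43 over the 4 sperm genes, 5.07 over other sperm chromatin genes, 4.96 over sperm tail genes, 4.09 over acrosome genes, 3.16 over haploid regulators, 0.66 over meiosis genes and -2.03 over early germ cell genes, beside -0.04 over all genes tested. With every gene that was below background in 1 of the groups set to its bound, the medians were 7.49, 2.91, 3.97, 2.08, 1.89, 0.30 and -2.03. A bound under 1 was counted there as no difference. The filter let many list genes in through the adult arrays, as with the 4 sperm genes, so the counts describe these samples only.

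**Figure D3:**
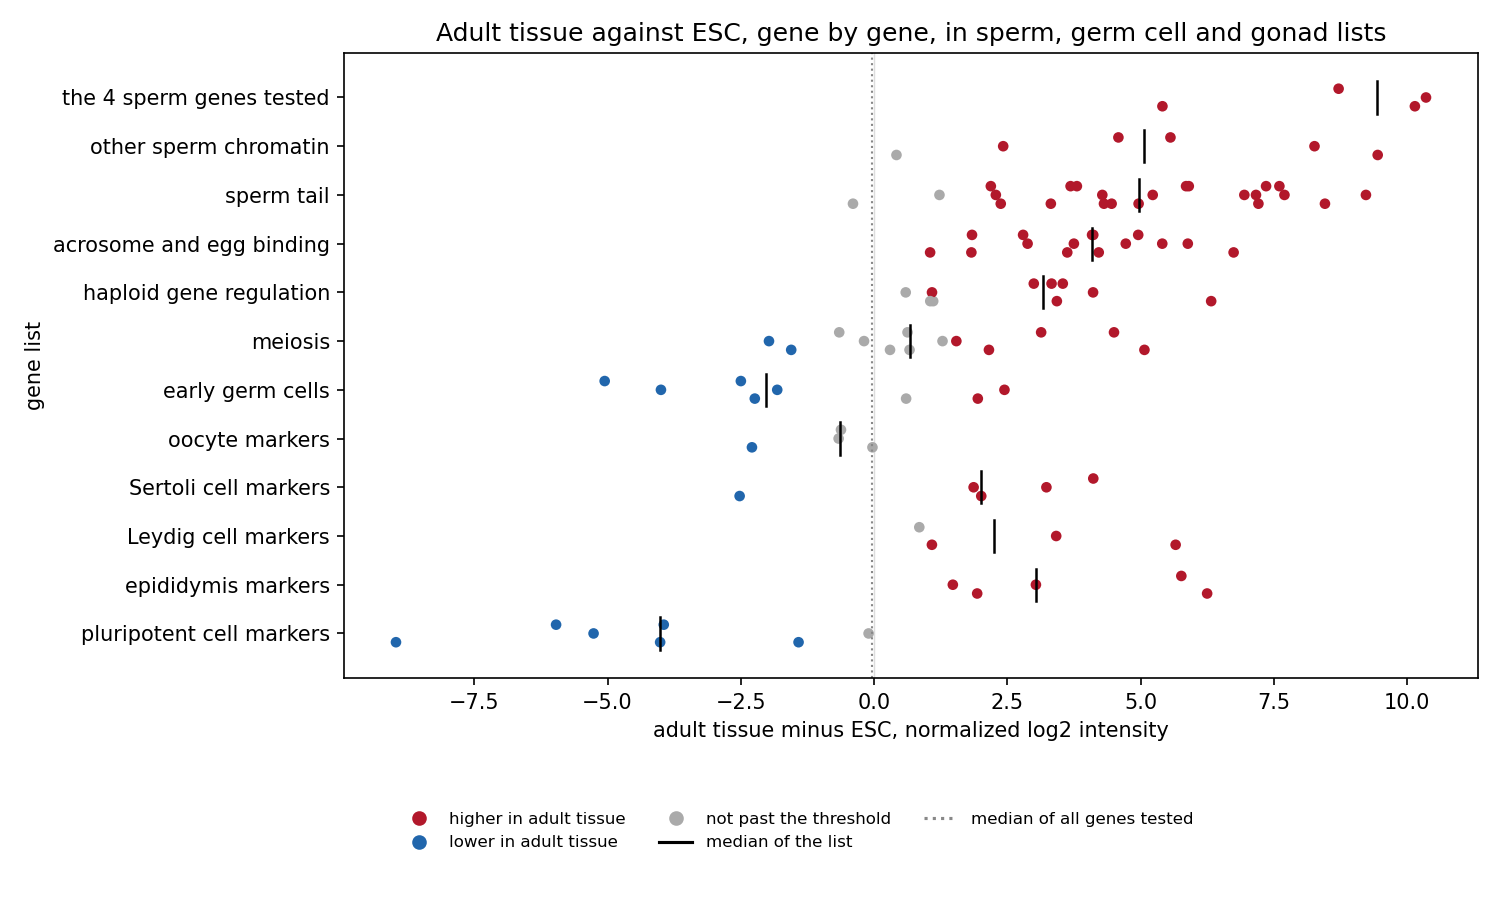
Difference between adult tissue and ESC in normalized log2 intensity for each tested gene of 12 lists, with red for higher, blue for lower and grey for not past the threshold, black bars for list medians and a dotted line for the median of all genes tested. The sperm chromatin and acrosome genes lie to the right of the line, as do the sperm tail genes except Akap3 (-0.40), with early germ cell and pluripotent cell genes mostly to its left.

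Markers of the somatic testis cells and of the epididymis, through which sperm pass, were read alongside. On the adult arrays 52.8% to 57.9% of all gene probes were above background, and 26.7% of all genes tested were called higher than in ESC. The counts above background of Sertoli cell, Leydig cell and oocyte markers given below lay under the first share. Of 12 Sertoli cell markers with a probe, 5 were above background in adult tissue, and of 5 tested 4 rose against ESC and Rhox5 fell (-2.52). Defb19, a Sertoli cell defensin gene, was at least 17.3-fold higher in adult tissue and Wt1 at least 2.00-fold. Of 8 Leydig cell markers with a probe, 4 were above background in adult tissue, and of 4 tested 3 rose against ESC. The steroid hydroxylase gene Cyp17a1 was at least 16.7-fold higher, and Nr5a1 did not pass (log2 difference 0.85, adjusted p = 0.0583, limma). Of 6 epididymis markers with a probe, 5 were above background in adult tissue and all 5 passed the test as higher against ESC, with the lipocalin gene Lcn5 at least 7.96-fold and Crisp1 at least 12.5-fold higher. Lcn8 did not pass against 3-day EB (adjusted p = 0.103, limma). For Lcn8, the Sertoli cell gene Cldn11 and the Leydig cell gene Star, as for Tdrd1 and Dazl among the meiosis and early germ cell genes that passed, the bound against ESC was under 1 and no fold is given. Of 8 oocyte markers with a probe, 3 were above background in adult tissue and of 4 tested 1 fell and 3 did not pass. The part of these cells in the levels of the sperm genes was not tested.

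The adult-only pattern of the 4 sperm genes was shared by many probes. Of 19758 gene probes, 2803 (14.2%) were above background on both adult arrays and on no ESC or EB array of UniSet 20K. Among the 2378 of these with 1 gene symbol outside the members, the 10 most like the mean of the 4 genes over the 7 samples were Scgb1a1, Cldn34c4, Iqcf4, 1700008P02Rik, Izumo2, Lcn5, Ccl28, Txndc2, Spata4 and Hils1, with Pearson r from 0.998 to 0.9996. The coefficient is a measure of likeness and rests on the step between the 2 adult samples and the other 5. Izumo2 (sperm head), Txndc2 (a thioredoxin of the sperm tail), Spata4 and Hils1 are expressed in the testis, whereas Scgb1a1, at least 266-fold higher in adult tissue than in ESC, is the club cell secretory protein of the airway, and Ccl28 is a chemokine of mucosal epithelia.

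Of the neighbours of the sperm genes on the chromosome, 3 had a probe, and 1 of these, Socs1, had one on UniSet 20K. Socs1, the cytokine signalling inhibitor gene next to Tnp2 with 2398 bases between them, read 29.1 and 26.5 in adult tissue, about the median of those arrays (0.968 and 1.19 times), against 8.69 and 11.4 in ESC, 5.64 to 12.8 in 3-day EB and 4.58 to 14.0 in 7-day EB. The Socs1 spots were above background on both adult arrays and below it on all ESC and EB arrays of UniSet 20K, but the normalized difference from ESC was -0.39 (SE 0.32, adjusted p = 0.342, limma), and neither EB comparison passed the threshold (adjusted p = 0.615 and 0.19 against 3-day and 7-day EB, limma). On Whole Genome Socs1 read 212 and 155 in ESC, 512 and 448 in 3-day EB and 158 and 178 in 7-day EB. The long noncoding RNA gene 1700027A15Rik, separated from Tnp1 by 136 bases, had a Whole Genome probe only. It read 40.2 and 22.0 in ESC, 77.0 and 83.8 in 3-day EB and 83.5 and 97.8 in 7-day EB. As multiples of the array median these were 0.774 and 0.664 in ESC, 1.51 and 1.60 in 3-day EB and 1.27 and 1.41 in 7-day EB, so it was higher than in ESC in both EB samples, while Tnp1 was higher in the 3-day sample. Lce6a, the skin gene next to Smcp, was below background on all 6 Whole Genome arrays.

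**Figure D4:**
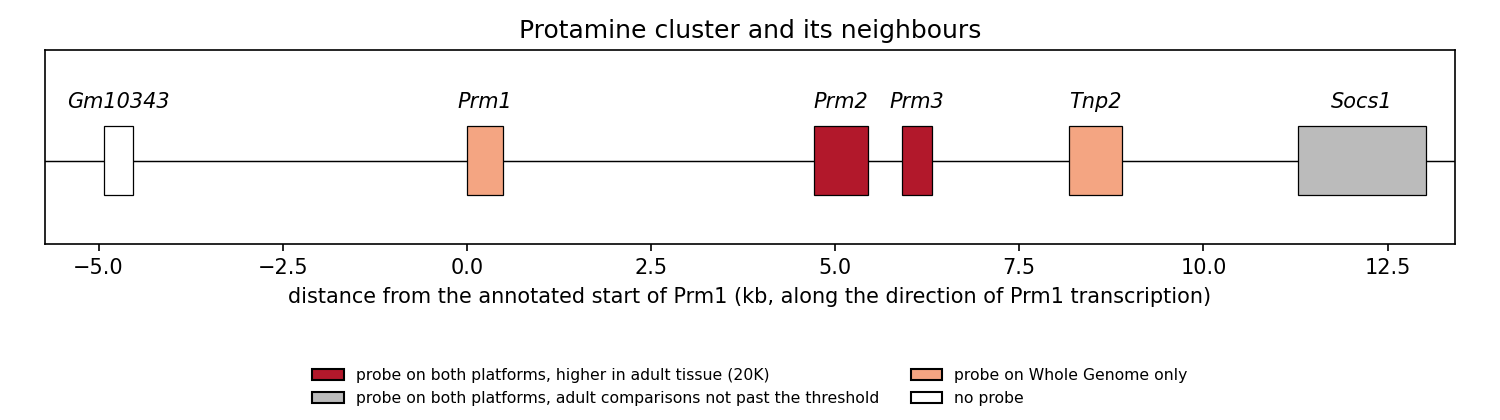
Map of the protamine cluster, drawn to scale in kb from the annotated start of Prm1 along its direction of transcription, with boxes for genes coloured by probe coverage and by the adult comparisons. Prm2 and Prm3 were higher in adult tissue, Socs1 did not pass the threshold, and Prm1 and Tnp2 had a probe on Whole Genome only.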

How the data were processed

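Values came from the scanner exports, 1 per array. Their raw column holds 1 intensity per spot, per the file headers written by software version 4.1.0.29054, with background already subtracted as the negative values show, so the planned normexp step was not applied. A second column holds the authors' median-normalized intensity and served as an alternative, as did the deposited UniSet 20K value table, which holds that column for ESC and EB but other values for adult tissue. The deposited Whole Genome tables did not match the exports by probe and were not used. The number of unused sample columns was 0.

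Arrays with the same group and first title number were averaged as 1 sample, a reading the labels do not spell out. Spots that the scanner had masked or judged contaminated or irregular were left out. Deposited raw intensities were quantile-normalized within each platform, raised to the median negative control (3.42 on UniSet 20K, 5.23 on Whole Genome) and put on the log2 scale, on which none of the deposited values stood. A probe entered a test if some group had it above background, as marked in the exports, on all its arrays, and the brightest probe stood for its gene. Probe names came from accessions, GEO's platform annotation and RefSeq: 15741 of 19758 UniSet 20K probes had 1 symbol, 63 several and 3954 none. The Smcp probe carries an older symbol in the files. Of the 6 genes, 5 matched a RefSeq promoter.

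Tests used limma 3.58.1 in R 4.3.3 (lmFit, eBayes), with all UniSet 20K samples in the adult fit (3 residual degrees of freedom, prior 4.16) and the platform as a term in the EB fit (4, prior 3.95). The code was tested on simulated data. Same-numbered samples of different groups correlated by 0.03, 0.06 and 0.23 in their deviations, so numbers were not taken as pairs. Named genes were the 6 members, up to 4 genes per sperm, germ cell and gonad list with the smallest p in adult tissue against ESC, the 10 probes most like the members, and chromosomal neighbours. Actl7a, Akap3, Catsper1, Boll, Sox30, Piwil1, Rhox5, Hormad1, Sycp3, Ddx4 and the genes with a bound under 1 were named after their values were seen. Members and lists were chosen with earlier results of these data known. The number of arrays limits the precision.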

Additional observations from a re-analysis of the deposited data

How the results depend on the processing

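Each of the 12 differences of Prm2, Tnp1, Smcp and Odf1 between adult tissue and a culture group kept its direction and its adjusted p under 0.05 in limma in 18 of 18 alternatives. They ranged from 8.18 to 10.75 for Prm2, 7.77 to 11.10 for Tnp1, 7.39 to 8.96 for Smcp and 4.14 to 5.83 for Odf1 against ESC on the log2 scale, with a highest adjusted p of 0.00393. An offset of 16 before log2 gave the lowest values. The 4 probes were below background in the cultures and passed the filter through the adult arrays, so keeping their calls is no further support. Median centring moved the median adult difference of all genes against ESC to 0.36, against -0.04 under quantile normalization, and the calls against ESC to 3236 higher and 1780 lower (3274 and 1784 with the authors' column), against 2693 and 2535. The differences of the 4 genes were then 9.60, 9.49, 8.45 and 5.77. Against 3-day and 7-day EB the split became 4113 and 1984, and 4127 and 2011, where it had been 3182 and 3072, and 3252 and 2967. For 7-day EB against ESC it became 68 and 211, against 112 and 210.

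Counts of called genes moved more. With the deposited value table, which covers fewer genes (6252), the adult comparisons gave 3125, 3729 and 3795 calls against ESC, 3-day EB and 7-day EB, where the main counts were 5228, 6254 and 6219. With the replicate block they were 5153, 6342 and 6310, and the EB comparisons gave 157 (7-day) and 67 (3-day), against 322 and 177; the numbers are not shown to pair samples. The 7-day and 3-day EB comparisons gave 137 and 74 without the filter on dim probes, 1590 and 1273 with each array as a sample, 86 and 112 with the date of the scanner report as a term, and 1 and 0 on UniSet 20K alone (970 and 600 at an unadjusted p under 0.05 in limma). Without 1 replicate at a time, counts ranged from 3980 to 5248, 5107 to 6322 and 5078 to 6174 for adult tissue against ESC, 3-day EB and 7-day EB, from 24 to 474 for 7-day EB against ESC and from 1 to 293 for 3-day EB against ESC. Leaving out ESC replicate 2, the Whole Genome ESC sample, gave the lowest EB counts, 24 and 1 (986 and 732 at an unadjusted p under 0.05 in limma). EB counts also moved by over 1.5 times without ESC replicate 1 (83 for 7-day, 72 for 3-day EB), EB_3d replicate 1 (60, 3-day), EB_3d replicate 3 (132 and 6), EB_7d replicate 1 (111 and 113), EB_7d replicate 2 (293, 3-day) and EB_7d replicate 3 (86 and 112). The causes were not tested. A date block for the adult comparisons was not run, because the adult arrays have a date of their own. Signal over background limits the ESC and EB values on UniSet 20K, where they are bounds, and Prm1 and Tnp2 everywhere.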

Other observations

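Lung, the organ of Scgb1a1, and liver had the highest list medians among the somatic tissue markers in adult tissue against ESC. Of 4 lung genes tested 3 rose, with a median log2 difference of 8.01, and the surfactant genes Sftpc and Sftpa1 were at least 97.3-fold and 36.6-fold higher in adult tissue. The surfactant gene Sftpb did not pass, with a log2 difference of -0.40 (SE 0.38, adjusted p = 0.403, limma). Of 8 liver genes tested all 8 rose against ESC, with a median of 4.78. The transthyretin gene Ttr was at least 24.8-fold higher (SE 1.81 on the log2 scale), the cytochrome gene Cyp2e1 at least 19.2-fold and the albumin gene Alb at least 1.35-fold. Against 7-day EB 5 of the 8 rose, and Ttr (log2 difference 2.10), Apoa1 (0.44) and Fgb (-0.16) did not pass. For Tnnt3 (skeletal muscle) and Slc1a2 (brain), which passed the test, the bound was under 1. Of 6 skeletal muscle genes 5 rose (median 4.15), of 4 kidney genes 4 (3.36) and of 5 brain genes 2 (0.77). Of 4 lymphoid genes 3 rose and 1 fell (median 1.72). These genes were picked after their values were seen. Genes below background in 1 of the groups were also set to their bounds, with a bound under 1 counted as no difference. The medians were then 5.90 for lung, 2.32 for liver, 1.64 for skeletal muscle, 2.07 for kidney, 0.49 for lymphoid and 0.00 for brain. The brain value is set by the rule for bounds under 1.

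In 7-day EB against ESC, Rhox5, a homeobox gene of Sertoli cells and of early embryonic cells, was 3.23 higher on the log2 scale (SE 0.33, adjusted p = 0.00381, limma) and Clu 2.79 higher (SE 0.40, adjusted p = 0.0113, limma). Of the other sperm tail genes, 8 were tested in each EB comparison, and in each 0 rose, 1 fell and 7 did not pass. Of all genes tested, 3.33% fell in 7-day EB and 2.16% in 3-day EB. Ropn1l fell by 1.15 on the log2 scale in 7-day EB (adjusted p = 0.0317, limma) but did not pass in 3-day EB (adjusted p = 0.125, limma). Catsper2, a subunit of the sperm calcium channel, fell by 1.07 in 3-day EB (adjusted p = 0.0369, limma) but did not pass in 7-day EB (adjusted p = 0.179, limma). Rhox5, Clu, Ropn1l and Catsper2 were also picked after their values were seen.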
